A study of Bos taurus with 64 samples.

Results

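The genes described here encode the proteolytic and apoptotic enzymes of skeletal muscle and their inhibitors: calpains and calpastatin, cathepsins, caspases and a DNA fragmentation factor, members of the BCL2 family, inhibitors of apoptosis with mitochondrial factors, and serpins. They were chosen by gene symbol among the probes of a bovine oligonucleotide array that are not marked as controls, and 44 of the 5449 transcript names on the array matched. The 44 comprise 6 calpain genes including calpastatin, 11 cathepsins, 9 caspase genes including the fragmentation factor, 3 BCL2 family genes, 3 inhibitors of apoptosis or mitochondrial factors and 12 serpins, each with 1 probe.

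Messenger RNA was measured in the Longissimus thoracis (LT) and the Semitendinosus (ST) of the same 32 Normand cull cows, slaughtered at an age of 4.5 ± 0.1 years after a finishing period of 101 ± 3 days. All cows were fed straw and concentrate enriched in lipids from extruded linseed and rapeseed. On the control diet nothing was added to this ration, whereas the EP diet also contained vitamin E and plant extracts rich in polyphenols. Before slaughter, 16 cows were handled with limited stress, and the other 16, called stressed cows, were isolated from their peers for transport and then spent 30 minutes in a labyrinth on a farm unknown to them. Each of the 4 combinations of stress and diet held 8 cows, slaughter was spread over 16 weeks, and muscle was taken within 15 minutes of slaughter. A stressed cow thus differed from a cow of limited stress by the whole handling sequence, whose elements cannot be told apart. Every array of a group came from another cow, so p-values for stress and diet within a muscle refer to the spread between cows. Those for LT versus ST and for the muscle by stress interaction come from a fit that treats both muscles of a cow as independent. In whole muscle, fewer cells of a type and less RNA per cell cannot be told apart.

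Calpains are calcium-dependent cysteine proteases of the cytosol, held in check by calpastatin (CAST), and they are best known in meat science for cutting myofibrillar and cytoskeletal proteins after death, a process linked to tenderness. Cathepsins are lysosomal proteases. Caspases are cysteine proteases that dismantle the cell in apoptosis, upstream of which the BCL2 family controls the permeability of the mitochondrial membrane, and inhibitors of apoptosis oppose them. Serpins are a superfamily of mostly serine protease inhibitors, several of which act in blood and the extracellular matrix. Activity of these enzymes depends largely on activation and on inhibitors, which transcript levels do not measure.

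The probes on which the results turn are shown by their last 30 bases, 5′ to 3′ as printed on the array, because each of these values rests on hybridisation to a single such oligonucleotide. Capitals mark AATAAA, the hexamer of the canonical polyadenylation signal. The first 2 belong to transcripts that passed the test for stress, and the last 2 to the transcripts with the largest differences between muscles.
CTSZ: ccaagtgatgAATAAAatgcacacttcaca
DFFB: gaatcacaaaggaccaattttctaaaccat
CAST: ctcaagatacaagatgcaattaaaggaaag
CTSC: tgtataaatcatgagacaatgtgacaatgg
In the Btau_3.1 coordinates of the array files the whole probes lie at chr13:58107097-58107156 for CTSZ, chr16:46559491-46559550 for DFFB, chr7:97576202-97576261 for CAST and chr29:7577197-7577256 for CTSC. The files list that of DFFB in descending order of position. Exon and untranslated-region annotation of that build was not used here. Of the 44 probes, 11 (25%) held AATAAA as printed, against 9.91% of all 13285 probes, and 1 held its reverse complement. All 44 carry a gene name, whereas the 13285 also hold the probes of 1945 unnamed custom sets. Whether this accounts for the gap was not tested. No run of more than 11 bases was shared by any pair of the 44 probes.

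Levels are given as the log2 of the processed signal relative to the 75th percentile of the signals of the same array, so 0 is the level of a bright probe and only differences of the same probe between arrays can be read. A transcript was tested in a muscle when at least 11 of its 32 arrays gave a signal well above background. In all, 35 of the 44 transcripts, all 6 calpains and all 11 cathepsins among them, were tested in each muscle, and 31 were well above background on every array of that muscle. The other 9 were BCL2L14, CASP2, CASP8, SERPINA1, SERPINA3, SERPINA7, SERPINA10, SERPINA11 and SERPINB2, each well above background on 0 to 8 of the 32 arrays of a muscle. Between 71.4% and 80.9% of the probes of an array were well above background, and all 6 skeletal muscle markers on the array, including actin alpha 1 and creatine kinase, were detected in both muscles. One array stood apart. The LT array of cow255, a cow of limited stress on the control diet, held 52 of the 72 probes whose signal lay at least 3 log2 units above that on every other LT array. Values that rest on this array are given with and without it.

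Stress changed few of these transcripts. In the LT, CTSZ and DFFB fell. DFFB also fell in the ST and was the only transcript of the group that passed the test in both muscles (limma, Benjamini-Hochberg adjusted p under 0.1). The 3 called in the LT were 8.57% of the 35 tested, where 161 of 4311 transcripts of the whole array, or 3.73%, were called. By direction, 1 of the 35 was higher in stressed cows (background 2.2%) and 2 were lower (background 1.53%). The 2 called in the ST were 5.71% of 35 against a background of 3.6%, with 1 higher (background 1.48%) and 1 lower (background 2.12%). For calls in both muscles the background was 1.58%, or 67 of 4230 transcripts, and DFFB made up 2.86% of the 35. With the cow as a block in a fit of both muscles, 5 were called for the LT and 3 for the ST, with 3 called in both muscles. No share over all transcripts is given for that fit, so its counts have no background beside them. The median log2 difference between stressed and limited-stress cows was -0.07 over the 35 transcripts in either muscle, beside -0.05 in the LT and -0.06 in the ST over all transcripts. Of the 35, 20 lay below 0 in both muscles, 6 above 0 in both, and 9 had opposite signs. In the LT 71.4% of the 35 lay below 0, beside 65.2% of all transcripts, and in the ST 68.6% beside 69.8%.

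**Figure D1:**
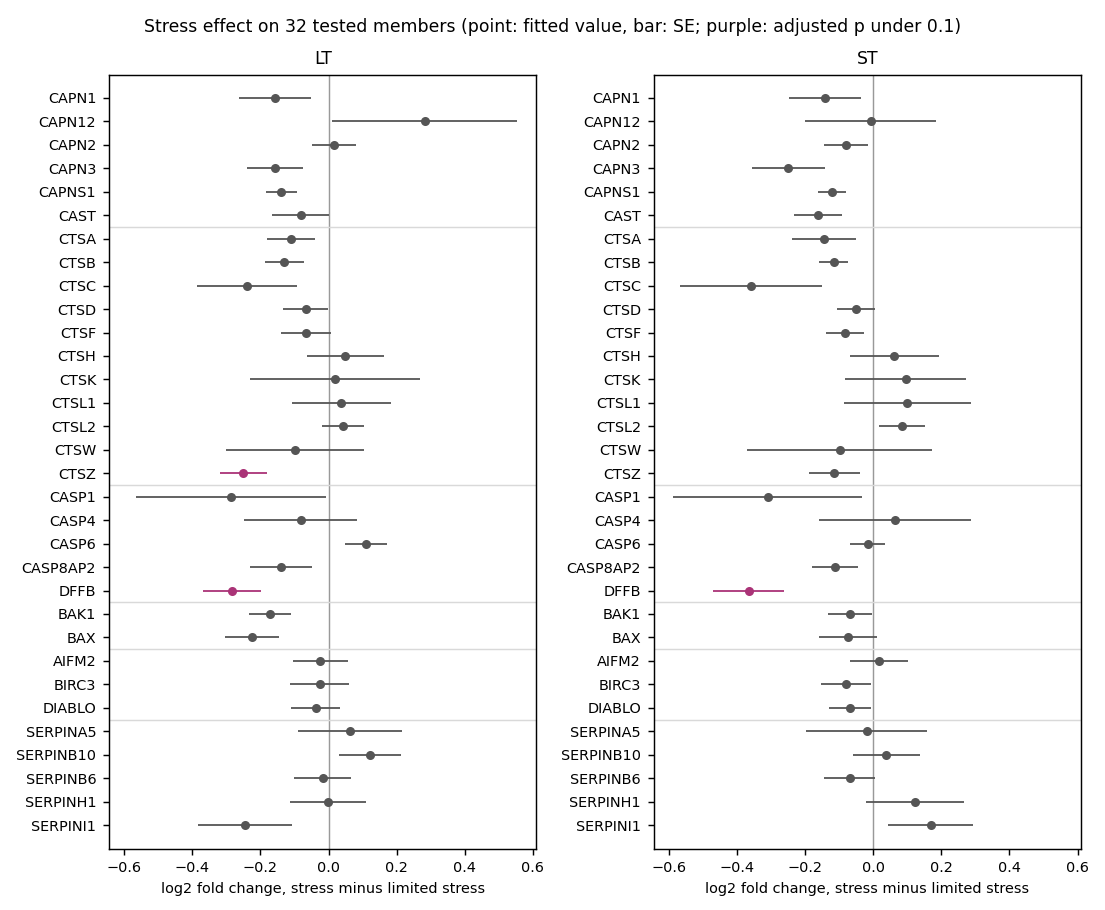
Fitted log2 difference between stressed and limited-stress cows for 32 tested transcripts, in the LT (left) and the ST (right), with the standard error as a bar, ordered by role and separated by lines; purple marks an adjusted p under 0.1. DFFB is marked in both muscles (-0.28 in the LT and -0.37 in the ST) and CTSZ in the LT (-0.25). Most other transcripts lie slightly below 0, where 65.2% (LT) and 69.8% (ST) of all tested transcripts of the array also lay below 0.

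Among the serpins, SERPINH1 encodes the collagen chaperone HSP47. Its level in the LT averaged -0.30 ± 0.33 in limited-stress and -0.30 ± 0.32 in stressed cows (SD, n = 16 each), with a 95% interval of the difference from -0.23 to 0.23. In the ST the difference was 0.12 (SE 0.144, adjusted p = 0.704). SERPINA5, SERPINB6, SERPINB10 and SERPINI1 ranged from -0.25 to 0.12 in the LT and from -0.07 to 0.17 in the ST, and none passed.

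**Figure D2:**
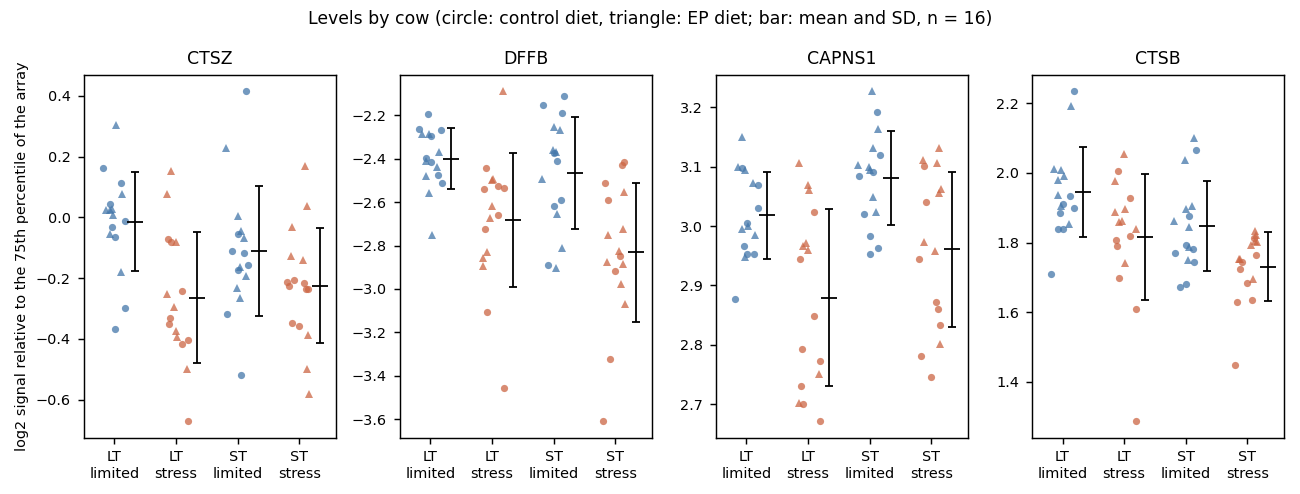
Level of CTSZ, DFFB, CAPNS1 and CTSB in every cow, as log2 signal relative to the 75th percentile of the array, in limited-stress (blue) and stressed (orange) cows of each muscle; circles are cows on the control diet, triangles on the EP diet, and bars are mean and SD (n = 16). All 16 stressed ST samples lie below the limited-stress median for DFFB, and 8 stressed LT samples lie below every limited-stress sample for CAPNS1.

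DFFB encodes the caspase-activated DNase that cleaves chromosomal DNA between nucleosomes during apoptosis. In the LT, levels in cows of limited stress ran from -2.75 through -2.40 to -2.20, and in stressed cows from -3.46 through -2.64 to -2.09. The limited-stress median exceeded 15 of the 16 stressed cows, and 5 lay below every cow of limited stress. The log2 difference was -0.28 (SE 0.0856, fold 0.821, adjusted p = 0.0693). In the ST the limited-stress cows ran from -2.90 through -2.39 to -2.11 and the stressed cows from -3.61 through -2.84 to -2.41. Here all 16 stressed cows lay below the limited-stress median, and the difference was -0.37 (SE 0.104, fold 0.776, adjusted p = 0.0525). Stressed cows averaged lower on 4 of 4 LT slides (by -0.49 to -0.22) and on 5 of 5 ST slides (by -0.70 to -0.03). With the slide as a block the LT difference was -0.31 (adjusted p = 0.0461) and the ST difference -0.29 (adjusted p = 0.366), so the ST call was lost, and without slide 9, which held 6 stressed cows and 1 of limited stress, it was -0.23 (adjusted p = 0.257). The LT call was also lost, with adjusted p up to 0.116, when cow251, cow267, cow269, cow270, cow282, cow308, cow330 or cow331 was left out.

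The caspase genes CASP1, CASP4 and CASP6 and the caspase 8 associated CASP8AP2 ranged from -0.29 to 0.11 in the LT and from -0.31 to 0.06 in the ST. CASP1 and CASP4 were dim, with well above background signals on 11 and 25 of the LT arrays and on 13 and 16 of the ST arrays.

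CTSZ, a lysosomal carboxypeptidase also called cathepsin X, fell in the LT. Cows of limited stress ran from -0.37 through 0.02 to 0.30 and stressed cows from -0.67 through -0.31 to 0.15. Most stressed cows, 14 of 16, lay below the limited-stress median and 6 lay below every cow of that group. The log2 difference was -0.25 (SE 0.0700, fold 0.841, adjusted p = 0.0446) and was negative on 4 of 4 slides (-0.33 to -0.08). It was -0.21 with the slide as a block (adjusted p = 0.104). In the ST the difference was -0.11 (SE 0.0743, adjusted p = 0.437), and stressed cows averaged lower on 3 of 5 slides. The 10 custom probes in 2 sets for CTSZ gave LT differences from -0.25 to -0.18, and 6 of the 10 were past the threshold. These were 3 of 5 probes in each set, too few for a call, so neither set was called.

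The remaining 10 cathepsins did not pass in either muscle. CTSB, an abundant lysosomal cysteine protease, ran in the LT from 1.71 through 1.92 to 2.24 in limited-stress cows and from 1.29 through 1.85 to 2.05 in stressed cows. Its LT difference was -0.13 (SE 0.0575, adjusted p = 0.255). The ST difference was -0.12 (SE 0.0434, adjusted p = 0.159), with 14 of 16 stressed cows under the limited-stress median. CTSD, the main lysosomal aspartic protease, differed by -0.07 (SE 0.0664) in the LT and -0.05 (SE 0.0563) in the ST. CTSH, an aminopeptidase, differed by 0.05 (SE 0.112) and 0.06 (SE 0.130), and CTSL1, the RefSeq gene CTSL, by 0.04 (SE 0.145) and 0.10 (SE 0.186). CTSK, a collagen-degrading cathepsin, was a member for which cow255 stood out in the LT, at -0.97 where the next highest array was at -3.81. The LT difference of CTSK was 0.02 (SE 0.249) with that array and 0.24 without it (adjusted p = 0.364). CTSC, which activates the serine proteases of leukocyte granules, differed by -0.36 (SE 0.207, adjusted p = 0.372) in the ST.

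None of the 6 calpain genes passed the test for stress. CAPNS1, the small regulatory subunit shared by the ubiquitous calpains, came nearest. Its LT level ran from 2.88 through 3.00 to 3.15 in limited-stress cows and from 2.67 through 2.90 to 3.11 in stressed cows, and 8 of 16 stressed cows lay below every cow of limited stress. The differences were -0.14 in the LT (SE 0.0455, adjusted p = 0.103) and -0.12 in the ST (SE 0.0414, adjusted p = 0.122). Both fell below the threshold when the cow was added as a block in a fit of both muscles (adjusted p = 0.0300 and 0.0925). Of the 5 custom probes of CAPNS1, 0 were past the threshold in the LT (mean -0.11, limma adjusted p from 0.158 to 0.395). In the ST 1 of the 5 was past it (mean -0.13). CAPN1, the catalytic subunit of mu-calpain, had differences of -0.16 (LT, SE 0.105, adjusted p = 0.486) and -0.14 (ST, SE 0.105, adjusted p = 0.501). CAPN2, that of m-calpain, differed by 0.02 (SE 0.0635) and -0.08 (SE 0.0650). CAPN3, the muscle-specific calpain, differed by -0.16 (SE 0.0816, adjusted p = 0.343) and -0.25 (SE 0.107, adjusted p = 0.216). CAST, which encodes calpastatin, differed by -0.08 (SE 0.0839, adjusted p = 0.665) and -0.16 (SE 0.0703, adjusted p = 0.223). CAPN12 was dim, and its LT difference of 0.28 rested on the array of cow321, at -3.80 with the next highest at -6.90. It was 0.04 without that cow.

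Of the BCL2 family, the pore-forming effectors BAX and BAK1 were measured and neither passed. In the LT, BAX ran from -5.01 through -4.63 to -4.32 in limited-stress cows and from -5.17 through -4.88 to -4.14 in stressed cows, with 14 of 16 stressed cows below the limited-stress median and a difference of -0.22 (SE 0.0782, adjusted p = 0.131). BAK1 differed by -0.17 in the LT (SE 0.0608, adjusted p = 0.142). Both differed by -0.07 in the ST (SE 0.0857 for BAX and 0.0655 for BAK1). DIABLO, a mitochondrial protein that relieves caspases of their inhibitors, differed by -0.04 (SE 0.0714) in the LT and -0.07 (SE 0.0627) in the ST, and BIRC3, one of those inhibitors, by -0.03 (SE 0.0879) and -0.08 (SE 0.0730). Leaving out single cows moved some of the uncalled LT values past the threshold: CAPNS1 without cow251, cow268, cow287, cow302, cow303 or cow311, BAX without cow251, cow265, cow287 or cow331, and BAK1 without cow301, cow303 or cow311. In the ST this held for CAPNS1 without cow268 or cow311.

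Neither markers of muscle fibres nor those of other cell types gave a call for stress. The endothelial marker PECAM1 differed by 0.01 (LT) and 0.05 (ST), and the single blood marker tested by 0.11 (LT). The leukocyte marker tested, PTPRC, differed by -0.06 (LT) and -0.01 (ST), and the median of 5 fibroblast markers by 0.09 and 0.10. The median of 2 fat cell markers differed by -0.30 (LT) and -0.69 (ST), and their mean level spread from -5.68 to -0.27 over the LT arrays and from -5.34 to 0.03 over those of the ST. Their part in the values above was not tested. When arrays were scaled to the control features instead of the 75th percentile, this moved the median of all transcripts to -0.23 in the LT and to 0.03 in the ST. The signs of CTSZ and DFFB in the LT and of DFFB in the ST were unchanged by it, but none of the 35 transcripts then passed. The control features were dim: their median processed signal on an array was 1.73 to 6.36, where the 75th percentile was 2470 to 4202. Whether this accounts for the lost calls was not tested.

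**Figure D3:**
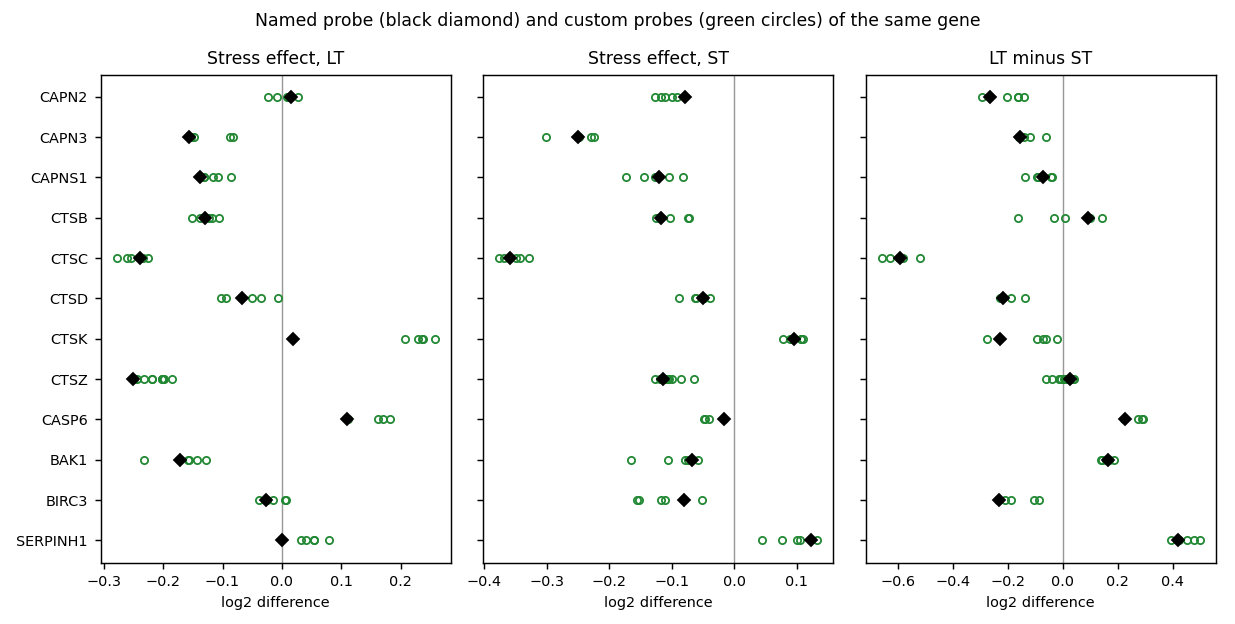
Log2 difference for the named probe (black diamond) and for each custom probe of the same gene (green circle), for stress in the LT, stress in the ST, and LT minus ST, for 12 genes. The 10 custom probes of CTSZ lie between -0.25 and -0.18 in the LT stress panel, beside the named probe at -0.25, while those of CTSK in the LT lie to the right of the named probe, which gave 0.02.

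The stress differences of the muscles were then compared with each other. None of the 35 transcripts showed a muscle by stress interaction (limma), and the background was 0% of 4230 transcripts. One of the 35 had an unadjusted p under 0.05, beside 2.71% of all probes. That was SERPINI1, which encodes neuroserpin, with -0.25 in the LT and 0.17 in the ST (difference -0.41, SE 0.188, p = 0.0317, adjusted p = 0.999). The interaction was 0.08 (SE 0.135) for DFFB and -0.14 (SE 0.101) for CTSZ, so the call of CTSZ in the LT alone was not shown to be a difference between muscles.

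None of the 35 transcripts passed the test for the EP diet in the LT (background 0%) or in the ST (background 0%), and none had a stress by diet interaction in either muscle (background 0% in each). By limma, 2 of the 35 had an unadjusted p under 0.05 for the diet in each muscle, beside 3.90% and 5.15% of all probes. For the interaction these counts were 1 (LT) and 2 (ST), beside 2.64% and 4.76% of all probes. The lowest was for AIFM2, a member of the apoptosis-inducing factor family now better known as a suppressor of ferroptosis. Its stress difference was larger by 0.51 on the EP diet than on the control diet in LT samples (SE 0.161, p = 0.00329, adjusted p = 0.9999), and by 0.37 in ST samples (SE 0.169, p = 0.0373, adjusted p = 0.969). For DFFB in the LT the stress difference was -0.17 in cows fed EP and -0.40 in those fed the control diet, and the interaction of 0.22 had an SE of 0.171.

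Apart from stress, the muscles differed in the level of many of these transcripts. Between LT and ST 19 of 35 were called, 54.3%, where 51.3% of 4327 transcripts were called. Of these, 6 were higher in the LT (17.1%, background 22%) and 13 were higher in the ST (37.1%, background 29.3%). With the cow as a block, which pairs both muscles of an animal, 24 were called, 8 higher and 16 lower in the LT. The p-values given below for LT versus ST come from the fit without that block. Every slide carried arrays of 1 muscle only, so a slide effect and the muscle cannot be told apart in a fixed model. The split of 6 to 13 also depended on the scaling: it was 8 to 2 after scaling by the control features and 11 to 3 without scaling. Shares over all transcripts are given neither for the fit with the cow as a block nor for these scalings. The signs of AIFM2, CAPN3, CAPNS1, CASP8AP2, CTSA, CTSH and SERPINB10 turned with the control features, and those of AIFM2 and CAPNS1 also without scaling. All the other 12 called transcripts kept their sign under both. With the control features, however, CAPN2, CTSD, CTSF and BIRC3 differed by only -0.08, -0.03, -0.03 and -0.04. None of these was then called.

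**Figure D4:**
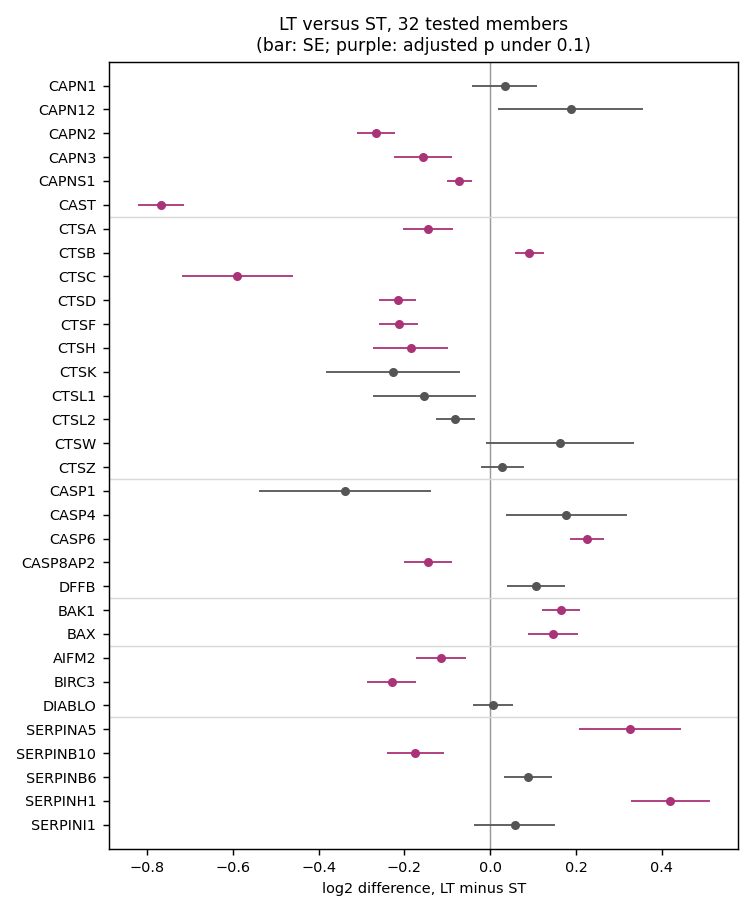
Fitted log2 difference LT minus ST for 32 tested transcripts, with the standard error as a bar; purple marks an adjusted p under 0.1. CAST at -0.77 and CTSC at -0.59 lie farthest to the left, and SERPINH1 at 0.42 and SERPINA5 at 0.33 are the called transcripts farthest to the right.

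CAST showed the largest difference. Over all 32 cows its level ran from -0.54 through -0.08 to 0.30 in the LT and from 0.04 through 0.65 to 1.02 in the ST. It was higher in the ST of every cow, by 0.36 to 1.35 log2 units, with LT minus ST at -0.77 (SE 0.0545, fold 0.588, adjusted p = 4.2e-18). The call held in all 14 alternative analyses, with a difference from -0.77 to -0.58. Among the calpains, CAPN2 was also lower in the LT, by -0.27 (SE 0.0446, adjusted p = 1.3e-06), in 30 of 32 cows, whereas CAPN1 differed by 0.03 (SE 0.0750, adjusted p = 0.731). The call of CAPN2 was lost with the control features, as given above.

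Of the 11 cathepsins, 5 were called lower in the LT (background 29.3%), 1 was called higher (background 22%) and 5 were not called. CTSA and CTSH, among the 5 lower, turned sign with the control features. CTSC ran from -4.41 through -3.29 to -2.35 in the LT and from -4.31 through -2.81 to -1.50 in the ST, and was higher in the ST of 28 of 32 cows (-0.59, SE 0.129, adjusted p = 1.2e-04). The mean over its 5 custom probes, of which 1 is identical to the named probe, was -0.60. CTSD was lower in the LT by -0.22 (SE 0.0426, 28 of 32 cows) and CTSF, a cysteine cathepsin, by -0.21 (SE 0.0458, 31 of 32 cows), although the custom set of CTSF, at -0.11, was not called. The calls of CTSD and CTSF were lost with the control features, as given above. CTSH was lower by -0.19 (SE 0.0870, adjusted p = 0.0686, 23 of 32 cows) but turned sign as given above, and its call was lost without cow259, cow260, cow287 or cow304. CTSB was the one called higher, at 0.09 (SE 0.0345), where its custom probes gave -0.16 to 0.14.

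Apoptotic genes went both ways. CASP6, a caspase that cleaves lamins, was higher in the LT by 0.23 (SE 0.0392, adjusted p = 2.4e-06), in 28 of 32 cows, and BAK1 and BAX were higher by 0.16 (SE 0.0438) and 0.15 (SE 0.0578). BIRC3 was lower in the LT by -0.23 (SE 0.0569, adjusted p = 5.8e-04), in 26 of 32 cows, but this call was lost with the control features, as given above. A pair of serpins was higher in the LT. SERPINH1 ran from -1.21 through -0.27 to 0.29 in the LT and from -1.58 through -0.70 to 0.08 in the ST (difference 0.42, SE 0.0923, adjusted p = 1.2e-04, 26 of 32 cows). SERPINA5, the RefSeq gene LOC338050, was higher by 0.33 (SE 0.119, adjusted p = 0.0187, 25 of 32 cows). The call of AIFM2, -0.12 with an adjusted p of 0.0914, was lost in 16 of the 32 analyses with 1 cow left out (cow259, cow260, cow265, cow275, cow280, cow282, cow299, cow301, cow303, cow304, cow308, cow314, cow320, cow324, cow330 or cow331). Without the LT array of cow255, CTSK (-0.34, adjusted p = 0.0100) was called as well. A call was gained for CTSL2 without cow255, cow260, cow269 or cow270.

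Markers of fibre type differed along with these genes. Of 5 slow fibre markers 3 were higher in the LT (background 22%) and MYH7 was lower. Both fast fibre markers were lower, and all 6 general muscle markers were lower by 0.11 to 0.23 (background 29.3%). The split of muscle calls depended on the scaling as given above, and the marker values are given for the main scaling only. Of 5 fibroblast markers only COL1A1 passed, at -0.48, and the endothelial marker PECAM1 was higher at 0.34. Their part in the differences of the protease and inhibitor genes was not tested.

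Each cow gave both muscles, so it could be asked whether a cow with a high level in the LT also had one in the ST, after the means of the 4 stress and diet groups were removed. Over 32 cows, 21 of 35 transcripts had an adjusted permutation p under 0.05 for both Pearson's r and Spearman's rho, computed over 35 transcripts. Permutations were not run over all probes, so this count has no background. For the 35 transcripts r ranged from -0.14 to 0.79 with a median of 0.50, beside 0.42 over all probes. Of the 35, 48.6% had r above 0.5 against 38.3% of all probes. CAPN1 had r = 0.77 and rho = 0.82 (adjusted permutation p = 7e-05 and 8.7e-05), r = 0.83 without the 2 farthest cows and 0.80 with slide means removed. DIABLO had r = 0.79 and rho = 0.76, with 0.77 without the 2 farthest cows. For CAST r was 0.22 and rho 0.23, and r was 0.59 once slide means were removed.

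**Figure D5:**
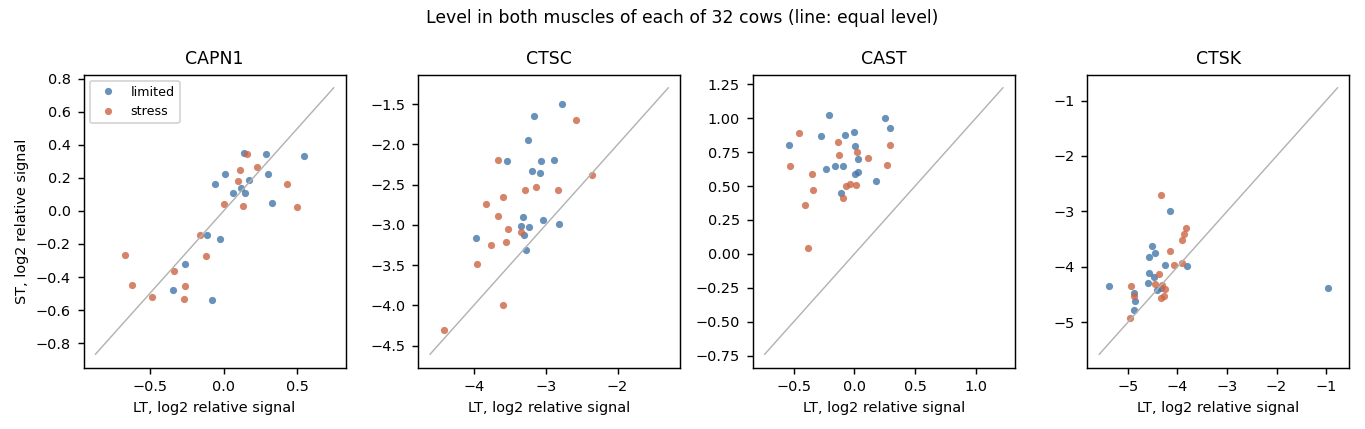
Level in the LT (horizontal) against level in the ST (vertical) of each of 32 cows, as log2 relative signal, for CAPN1, CTSC, CAST and CTSK, with limited-stress cows in blue, stressed cows in orange and a line of equal level. CAPN1 follows the line, all 32 points of CAST lie above it, and the point of CTSK far to the right is cow255.

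Genes that act around these enzymes, taken from lists of named genes, were looked at in the same fits. The lists were chosen with earlier results of these data known, so their counts and medians are descriptive and not independent support. Of the 11 tested plasminogen and metalloprotease genes, which act in the matrix and around fibrin, 2 rose in LT (background 2.2%), 1 rose in ST (background 1.48%) and none fell. THBS1, which encodes the matrix glycoprotein thrombospondin 1, rose by 0.83 (SE 0.175, adjusted p = 0.00337) and PLAT, the tissue plasminogen activator, by 0.40 (SE 0.124, adjusted p = 0.0757) in the LT. PLAUR, the urokinase receptor, rose by 1.17 (SE 0.270, adjusted p = 0.0118) in the ST. Its LT difference was 0.38 (adjusted p = 0.194). In the ST, THBS1 differed by 0.62 (adjusted p = 0.191) and PLAT by 0.37 (adjusted p = 0.200), and neither passed. PLAU, urokinase itself, differed by -0.35 in the LT (adjusted p = 0.108) and -0.28 in the ST (adjusted p = 0.210). The median over the list was 0.23 (LT) and 0.31 (ST), beside -0.05 and -0.06 over all transcripts.

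Of 6 tested autophagy and lysosome genes, GABARAPL1, a ubiquitin-like protein of the autophagosome membrane, was the one that passed, with rises of 0.93 in the LT (SE 0.196, adjusted p = 0.0038) and 0.65 in the ST (SE 0.189, adjusted p = 0.0637). The list median was -0.10 (LT) and -0.12 (ST). Of 7 apoptosis signalling genes 0 passed in the LT and 1 in the ST. FADD, an adaptor of death receptors, differed by -0.30 (LT, adjusted p = 0.231) and -0.27 (ST, adjusted p = 0.245), and RIPK1, a kinase of the same pathway, by 0.31 (LT, adjusted p = 0.107) and 0.23 (ST, adjusted p = 0.293). None of 9 calpain substrates of the myofibril passed for stress. Between muscles 7 of those 9 were called lower in the LT (background 29.3%), TCAP by -0.62 among them, and TNNT1, a slow fibre troponin, was called higher by 0.91 (background 22%). All 6 general muscle markers were lower as well, and the split of muscle calls depended on the scaling as given above.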

How the data were processed

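The authors hybridised amplified, Cy3-labelled RNA of each muscle sample to a single-colour Agilent array, and the deposited intensity is the processed signal of Feature Extraction 10.1.1.1, background-corrected and not yet normalized between arrays. Limma is named in the submitters' processing notes without a version. Files held 13950 features per array, of which 536 were controls, and the series table equals the array files. The precision is limited by the number of cows, 32, which gave the 64 arrays.

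Here the log2 of the processed signal was taken minus the log2 of the 75th percentile of the non-control spots of its array, outlier spots were dropped, and spots of a probe were averaged. Probes with signals well above background on 11 or more of 32 arrays of a muscle were fitted with limma 3.58.1 in R 4.3.3. Each muscle had a fit with 4 groups of stress and diet. LT versus ST and the interaction used 1 fit of 64 arrays with 8 groups, without a block. Calling a transcript required 80% or more of its probes to have, in one direction, an adjusted p under 0.1 (Benjamini-Hochberg over all probes). The study's model also had a period, which the labels do not give. The study scaled to control probes. An alternative here divided by the median of the 536 features the files mark as controls, which is not shown to be the same scaling.

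Named transcripts were all those called for stress, diet or an interaction, the 10 called with the largest muscle difference, and a fixed list of main proteases and inhibitors. CAPN12, AIFM2, SERPINI1, CTSL2 and further ones were named after their values were seen. Results of some genes are not reported here, although counts over all members and lists include them. The members and lists were chosen with earlier results of these data known. Of the fixed list, CTSS, LGMN, CST3, CSTB, CASP9, BCL2, BCL2L1, BID, BAD, BIRC2, BIRC5, XIAP, APAF1, DFFA, AIFM1, SERPINF1 and SERPING1 were not analysed here. Unnamed custom probe sets, 29 for 26 members, were matched by at least 25 shared bases. RefSeq transcripts matched 32 of the 44 members, with another symbol for 3. Correlations used 100000 permutations, two-sided.

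Same-numbered samples are both muscles of 1 cow, so the cow pairs them: deviations from the group means correlated in all 32 cows (0.11 to 0.77, median 0.44, over 9543 probes). On simulated LT data of 10441 probes, with 100 changed at each size, 72% of changes of 0.5 and 94% of changes of 1 on the log2 scale were recovered, with 21 false calls. The alternatives were other scalings, normexp with quantile normalization, other filters, an adjusted p under 0.05, probe averages, slide, scan day and cow as blocks, custom probes, no diet term, and each cow left out.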

Additional observations from a re-analysis of the deposited data

How the results depend on the processing

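The main counts were 3 transcripts called for stress in the LT, 2 in the ST, 1 in both and 19 between muscles. Shares over all transcripts are given above for these main counts only, not for the alternatives. Scaling to the control features gave 0, 0, 0 and 10, and unscaled signals gave 1 in the LT, 1 in the ST and 0 in both. At an adjusted p under 0.05 the ST had 1 and both had 0. The slide as a fixed block left 0 in the ST and 0 in both, and the scan day 5 in the LT, 1 in the ST and 0 in both. Fixed slide or scan day terms, also with the replicate block, were not run for LT versus ST, since each held 1 muscle; as random blocks, chosen after seeing the data, the slide gave 13 and the scan day 9. With the cow as replicate block (consensus correlation 0.41) there were 5 in the LT (CAPNS1 among those added), 3 in the ST (CAPNS1 among those added), 3 in both and 24 between muscles. Without the LT array of cow255, also chosen after seeing the data, 2 were called in both, and with the replicate block as well 6 in the LT, 4 in the ST and 4 in both. Leaving out each of 32 cows gave 2 to 5 in the LT, 2 to 4 in the ST, 0 to 3 in both and 17 to 22 between muscles. Interaction, diet and stress by diet counts were 0 in every analysis run. LT minus ST turned sign with control scaling for AIFM2 (0.072), CAPN3 (0.031), CAPNS1 (0.115), CASP8AP2 (0.041), CTSA (0.041), CTSH (0.0018) and SERPINB10 (0.013), and without scaling for AIFM2 (0.012) and CAPNS1 (0.055). The causes of these changes were not tested. Over 15 alternatives CTSZ in the LT lay between -0.43 and -0.21 and was called in 11.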
